A study of Homo sapiens with 6 samples.

Results

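The genes described here encode the cytosolic ribosomal proteins, measured by bulk RNA-seq in COV434 cells with and without 4HC, the active form of cyclophosphamide (CTX). They were chosen by gene symbol alone: symbols made of RPL or RPS, a number and at most an A or X, together with RPSA, RPLP0, RPLP1, RPLP2, RPS4X and RPL7L1. S6 kinases, RPS27L and Y-linked genes were left out. The rule found 78 genes among the 16798 of the deposited table, of which 47 carry large subunit names and 31 small subunit names. The rule itself uses no measured value.

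The labels give 3 control samples and 3 samples exposed to 15 µM 4HC for 24 h, all of wild-type COV434 cells in medium with serum. COV434 is an immortalized human line that the study uses as a model of granulosa cells (GCs). The treatment of the control samples is given only as control. Nothing in the labels says whether the 3 samples of a group came from separate cultures, so every p-value measures the spread between these samples, which may be technical.

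Each ribosome joins a small subunit, which reads the mRNA, to a large subunit, which makes the peptide bond, and each subunit is built on ribosomal RNA with one copy of nearly every ribosomal protein. The genes of these proteins lie on many chromosomes. Their mRNAs are among the most abundant of a growing cell and most begin with a run of pyrimidines at the 5′ end, the TOP motif, through which the mTORC1 kinase and the RNA-binding protein LARP1 control their translation. Ribosomal proteins that are not built into a ribosome can bind MDM2, a ubiquitin ligase, and several are mutated in Diamond-Blackfan anemia, an inherited failure of red cell production.

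The start of the transcript is shown for the 3 genes with the largest rise in 4HC and the 3 with the lowest log2 fold change, because the TOP motif is the feature these genes are known for. The sequences are from RefSeq (GRCh38.p14), with 10 bases before and 20 from the listed start, and capitals mark the run of C and T that covers the start. The windows are RPS19 at chr19:41860245-41860274, RPS9 at chr19:54200848-54200877, RPL10 at chrX:154398367-154398396, RPS7 at chr2:3575250-3575279, RPL35A at chr3:197950180-197950209 and RPL7L1 at chr6:42879606-42879635, all on the plus strand.
RPS19: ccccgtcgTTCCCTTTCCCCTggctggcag
RPS9: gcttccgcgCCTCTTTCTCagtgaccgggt
RPL10: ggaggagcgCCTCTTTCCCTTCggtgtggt
RPS7: cgCCCTCCTCCTCgcgctgtttccgcctct
RPL35A: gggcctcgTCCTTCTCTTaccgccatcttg
RPL7L1: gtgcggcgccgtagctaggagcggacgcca
Of these 6 genes only RPL7L1 has no such run, while RPS7 and RPL35A, which were not called, have one as RPS19, RPS9 and RPL10 do. RPS19 has 2 listed starts and RPL10 has 3, and the window with the longest run is shown.

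Start windows were listed for 63 of the 78 genes. In 49 of the 63 (77.8%) a run of at least 5 pyrimidines covered the start, against 11.9% of the 27305 genes with a window. The letters TTTCC stood in the 30 bases on the sense strand in 47.6% of the ribosomal protein genes and 6.28% of all genes, and GGAAA, its reverse complement, stood there in 0 of the 63 and in 4.44% of all genes. These matches are descriptions of the listed starts and no start was measured here.

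Each sample held 16133786 to 16702316 expected counts, the authors' estimates of reads per gene, which need not be whole numbers. After a filter on low counts 12368 genes were tested, all 78 ribosomal protein genes among them. Of 9 granulosa markers, only INHA and AMH passed the filter. FOXL2, FSHR, CYP19A1, NR5A1 and GATA4 did not exceed 0.186 CPM, the expected counts scaled to a library of 1000000, in any sample, INHBA stayed at 0.122 to 0.898 CPM, AMH had 5.19 ± 1.37 CPM and INHA 0.797 ± 0.348 CPM in the controls (SD, n = 3), and AMHR2 was not analysed here. CDKN1A, an inhibitor of the cell cycle, had 220, 233 and 221 CPM in the controls and 800, 786 and 764 CPM in 4HC, and MDM2 had a log2 fold change of 0.98 (adjusted p = 6.87e-32 in edgeR's quasi-likelihood test).

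Ribosomal protein mRNAs were among the most abundant of the cells. On the TPM scale, which divides by transcript length, the median gene had 3322 TPM in the controls, against 17.3 TPM over all tested genes, and the levels ran from 114 TPM for RPL7L1 to 12062 TPM for RPS29. They made up 4 of the 10, 41 of the 50 and 58 of the 100 genes of highest TPM. The median was 3153 TPM for large and 3334 TPM for small subunit genes.

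The 5 highest were all small subunit genes, among them RPS29, RPS18, RPS2 and RPS27. RPS29, a zinc-binding protein, had 12062 ± 238 TPM (SD, n = 3), RPS18 had 9777 ± 129 and RPS2 had 9017 ± 315 in the controls. RPS27 had 7208 ± 346 TPM. The 5 lowest were RPL7L1 (114 ± 5.83 TPM), RPL37 (131 ± 6.9), RPL14 (167 ± 5.61), RPL23 (401 ± 6.73) and RPL37A (427 ± 48.7), of which RPL23 and RPL37A overlapped. The TPM order depends on the transcripts the authors' reference lists for a gene, which differ in length: RPL37 had 612 CPM and RPS29 372 CPM before division by length.

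Exposure to 4HC went with a small rise in the share of reads from ribosomal protein genes. They took 8.34%, 8.47% and 8.25% of the expected counts in control replicates 1 to 3 and 8.76%, 8.90% and 8.74% in 4HC replicates 1 to 3. The groups did not overlap, with means of 8.35 ± 0.11% and 8.80 ± 0.0866% (SD, n = 3), a relative change of 5.38%. With libraries scaled by their totals, as in these shares, the median log2 fold change was 0.074 for these genes and 0.0255 over all tested genes. The 95% Wilson interval of a sample's share was at most 0.027 percentage points wide, which covers counting error only. In bulk RNA a larger share can come from more of these mRNAs or from less of the others, and from more cells of a kind or more RNA per cell, and these cannot be told apart.

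The share rose in both subunits. Large subunit genes took 5.12%, 5.18% and 5.06% of counts in the controls and 5.31%, 5.41% and 5.31% in 4HC, a relative change of 4.34%. Small subunit genes took 3.22%, 3.28% and 3.18% and then 3.45%, 3.49% and 3.44%, a relative change of 7.04%. The ratio of large to small subunit counts was 1.590, 1.579 and 1.589 in the controls and 1.541, 1.553 and 1.544 in 4HC. It was lower in every 4HC sample than in any control, by 2.53% on average.

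On the TPM scale the summed shares moved in the same direction by less. Ribosomal protein genes took 26.8%, 27% and 26.7% of TPM in the controls and 27.5%, 27.7% and 27.7% in 4HC. The ratio of large to small subunit TPM was 1.079 ± 0.00429 in control and 1.054 ± 0.00513 in 4HC (SD, n = 3), and its groups did not overlap either. The median TPM of the large subunit genes was that of RPL24 in every sample. It was 3147 to 3162 in the controls and 2955 to 3109 in 4HC, without overlap, but RPL24 was not called. Gene by gene, log2(TPM + 1) rose in 27 large subunit genes and fell in 20, with a median log2 fold change of 0.006.

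Of the 78 genes, 25 were higher and 1 was lower in 4HC at an adjusted p under 0.05 in edgeR's quasi-likelihood test. The 25 are 32.1% of the genes and the 1 is 1.28%, where 19.2% of all tested genes were higher and 17.1% were lower. The changes were small: log2 fold changes ran from -0.19 to 0.19 with standard errors of 0.0274 to 0.0443, 62 of the 78 lay within 0.1 of 0, and none reached the fold change of 2 by which the study defined DEGs. The median log2 fold change was 0.054, against 0.0047 over all tested genes. The count of genes that rose was 15 without control replicate 1, 12 without control replicate 3 and 14 without 4HC replicate 2, fits in which 16.4%, 15.6% and 15.9% of all tested genes were higher. In CPM the groups did not overlap for 26 genes that were higher (33.3%) and 5 that were lower (6.41%) in 4HC, against 23.4% and 21.9% of all tested genes.

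The calls were divided unequally between the subunits. Among the small subunit genes 14 of 31 rose (45.2%) and 0 fell, and the median log2 fold change was 0.067. Among the large subunit genes 11 of 47 rose (23.4%) and 1 fell, with a median of 0.019, or 0.031 when RPL7L1 was left out. Without control replicate 1, control replicate 3 or 4HC replicate 2 the genes that rose numbered 9, 9 and 10 in the small and 6, 3 and 4 in the large subunit. By unadjusted p under 0.05 in edgeR's test, 16 small and 17 large subunit genes passed in either direction, with RPL35A and RPL7L1 among them as falls. No share of all tested genes is given for this threshold, so these counts cannot be read against one. The difference between the subunits was not tested over genes, since members of one complex are not independent samples.

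**Figure D1:**
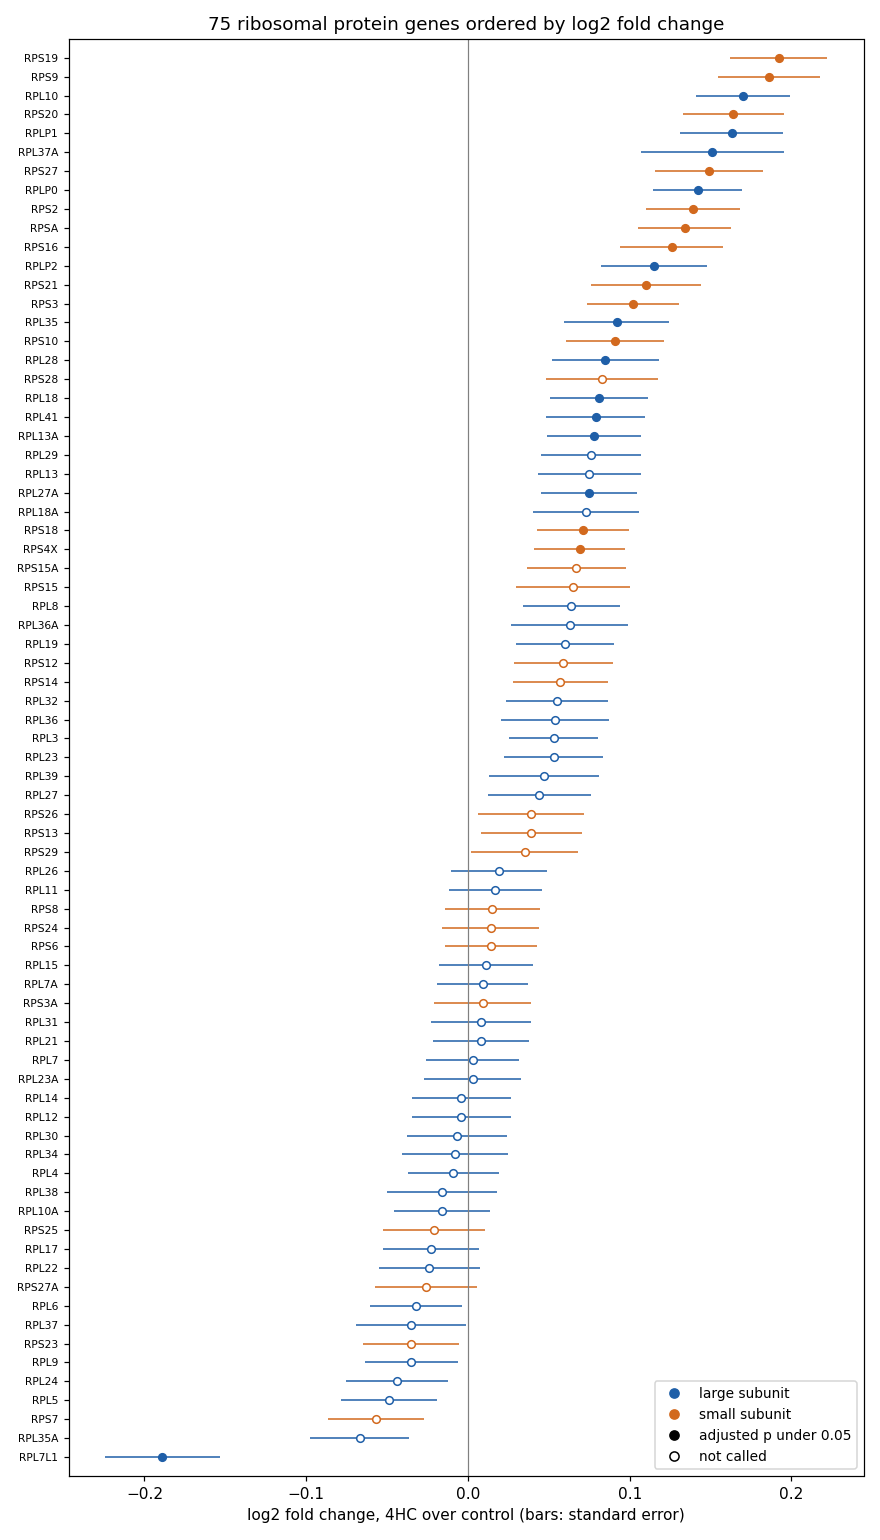
Log2 fold change of 4HC over control with its standard error for 75 of the 78 genes, ordered from highest to lowest, with large subunit genes in blue, small subunit genes in orange and filled points for adjusted p under 0.05. The points run without a break from 0.19 for RPS19 to -0.07 for RPL35A, and RPL7L1 stands apart at -0.19.

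Of the 25 genes, 12 were also called higher in every one of 17 other fits, among them RPS19, RPS9, RPL10, RPS20, RPLP1, RPS27, RPLP0, RPS2, RPSA, RPS16 and RPS3. The other 13 (among them RPL37A, RPLP2, RPS21, RPL35, RPS10, RPL28, RPL18, RPL41, RPL13A, RPL27A, RPS18 and RPS4X) each lost the call in at least 1 of them. RPL7L1 was called lower in all 17.

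RPS19, a protein of small subunit maturation and the first gene linked to Diamond-Blackfan anemia, had the largest rise. It had 1179, 1170 and 1120 CPM in the controls and 1309, 1366 and 1288 CPM in 4HC. Every 4HC sample was above every control, and the rise was 14.2% (log2 fold change 0.19, SE 0.0302, adjusted p = 8.9e-07 in edgeR's quasi-likelihood test). The gene lies on chromosome 19 at 41860255 to 41872928 (GRCh38). RPS9, at the entry of the mRNA channel, had 815, 882 and 836 CPM in the controls and 988, 964 and 928 CPM in 4HC. Its groups did not overlap either (rise of 13.8%, SE of log2 fold change 0.0316, adjusted p = 4.02e-06).

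RPS2 and RPS3 line the channel through which the mRNA passes, and both rose. RPS2 had 3659, 3955 and 3735 CPM in the controls and 4142, 4251 and 4102 in 4HC, a log2 fold change of 0.14 (SE 0.0291). RPS3 moved less, from 1853 ± 24.1 to 1988 ± 9.27 CPM (SD, n = 3). RPS14, RPS26 and RPS28, also of the channel, were not called, with log2 fold changes of 0.06, 0.04 and 0.08.

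RPS20, a protein of the head of the small subunit, had 574, 603 and 580 CPM in the controls and 637, 663 and 670 in 4HC, without overlap (log2 fold change 0.16, SE 0.0313). RPS27, a zinc finger protein that can bind MDM2, had 408, 376 and 377 CPM and then 427, 423 and 438. RPSA, also known as the laminin receptor precursor, had 2155, 2107 and 2099 CPM and then 2310, 2398 and 2273. Both rose in all 3 samples above every control, by 10.9% and 9.76%. RPS16, which reaches towards the tRNA in the peptidyl site, had a log2 fold change of 0.13 (SE 0.0319). RPS6, the substrate of the S6 kinases, was not called, with 1837 ± 15.4 CPM in control and 1855 ± 34.1 in 4HC (SD, n = 3).

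In the large subunit the genes that rose included RPL10 and those of the stalk, the protruding arm of acidic proteins that recruits the translation factors. RPL10, an X-linked gene of a protein that joins the subunit late and lies near the peptidyl transferase centre, had 1088, 1085 and 1070 CPM in the controls and 1232, 1213 and 1201 in 4HC. The gap between its groups was wide beside their spread (log2 fold change 0.17, SE 0.029, adjusted p = 4.58e-06 in edgeR's quasi-likelihood test).

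RPLP0, which anchors the stalk, had 2836, 2899 and 2889 CPM in the controls and 3175, 3191 and 3149 in 4HC. RPLP1 had 914, 935 and 868 CPM and then 1020, 1047 and 973, and RPLP2 had 469, 466 and 432 and then 491, 494 and 495. All 3 stalk proteins rose with no overlap, by log2 fold changes of 0.14, 0.16 and 0.11. RPLP2 lost the call without control replicate 3 (log2 fold change 0.08) and when the trend with GC content described further on was removed (0.05). RPL12 at the base of the stalk was not called and its groups overlapped, at 1070 ± 34.9 CPM in control and 1067 ± 26.9 in 4HC (SD, n = 3).

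**Figure D2:**
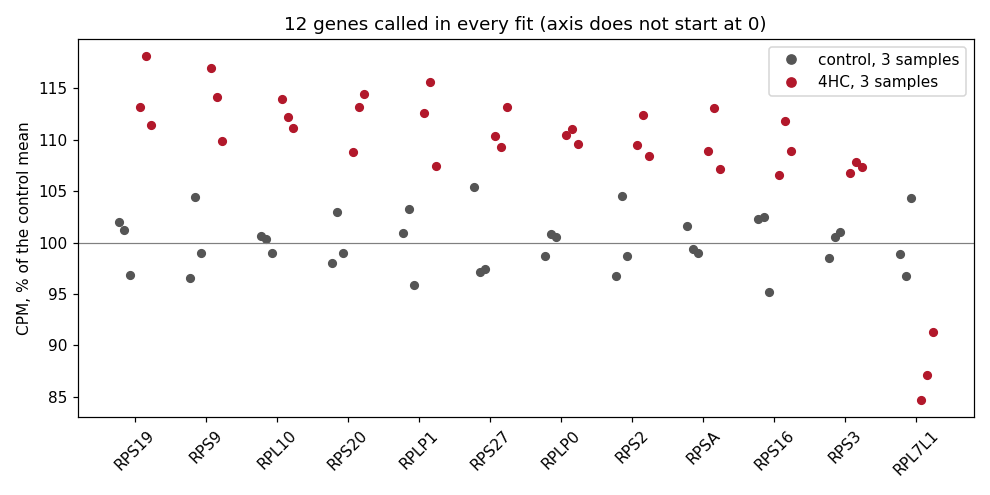
CPM of each sample as a percentage of the control mean for 11 of the ribosomal protein genes called higher, and the 1 called lower, in every fit, on an axis that does not start at 0. For each of these 12 genes the 3 samples exposed to 4HC (red) lie outside the range of the 3 controls (grey).

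Of 9 genes around the peptide exit tunnel 1 was called higher, where 23.4% of large subunit genes and 19.2% of all tested genes were. RPL35 had 629, 627 and 579 CPM in the controls and 652, 669 and 635 in 4HC, a log2 fold change of 0.09. RPL4, RPL17, RPL19, RPL22, RPL23A, RPL26, RPL31 and RPL39 had log2 fold changes of -0.02 to 0.06 and were not called. When the trend with GC content was removed, RPL35 lost the call and RPL39 was called higher (log2 fold changes 0.04 and 0.08). RPL37A, RPL28 and RPL41 were called higher although their groups overlapped: RPL37A had 752, 820 and 643 CPM in the controls and 838, 866 and 756 in 4HC, and had the largest standard error of all 78 genes. Its log2 fold change of 0.15 was 0.06 and not called without control replicate 3, and 0.23 without control replicate 2.

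RPL5 and RPL11 form the 5S RNP, the particle that inhibits MDM2 when ribosome assembly is disturbed. RPL5 had 1277, 1271 and 1271 CPM in the controls and 1191, 1225 and 1274 in 4HC, and RPL11 had 1409, 1425 and 1419 and then 1400, 1453 and 1449. The groups of both overlapped and neither was called (log2 fold changes -0.05 and 0.02, adjusted p = 0.198 and 0.683 in edgeR's quasi-likelihood test). With standard errors near 0.03, changes of a few percent in these genes were not detectable here. Of the 8 genes whose proteins are known to bind MDM2, RPS3 and RPS27 rose. Among all ribosomal protein genes 32.1% rose, and among all tested genes 19.2%. RPL5, RPL11, RPL23, RPL26, RPS7 and RPS14 were not called, and the median log2 fold change of the 8 was 0.04.

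Of 20 genes mutated in Diamond-Blackfan anemia, 6 rose (RPS10, RPS19, RPS20, RPS27, RPL18 and RPL35) and 0 fell, with a median of 0.04. These 6 are to be read beside the 32.1% of all ribosomal protein genes and the 19.2% of all tested genes that rose. Among the 4 X-linked genes RPL10 and RPS4X rose, RPS4X by 4.92%, whereas RPL36A and RPL39 were not called.

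RPL7L1, a paralog of RPL7 that is not a subunit of the mature ribosome, was the only gene called lower. It lies on chromosome 6 at 42879616 to 42889900 (GRCh38) and had 287, 281 and 303 CPM in the controls and 246, 253 and 265 in 4HC. The groups did not overlap (fall of 12.3%, log2 fold change -0.19, SE 0.0354, adjusted p = 2.27e-05 in edgeR's quasi-likelihood test). RPL7 itself had 1534 ± 21.7 and 1536 ± 19.7 CPM (SD, n = 3). Among the other genes the lowest log2 fold changes were -0.07 for RPL35A, -0.06 for RPS7, -0.05 for RPL5 and -0.04 for RPL24, and none of these was called. RPL35A had 663, 678 and 664 CPM in the controls and 625, 656 and 633 in 4HC, which did not overlap, at an adjusted p of 0.0805 in the same edgeR test, and it was called lower with DESeq2 and without 4HC replicate 2.

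The log2 fold change of a ribosomal protein gene followed the GC content of its transcripts. Spearman's rho was 0.638 over the 78 genes, 0.653 over the large and 0.620 over the small subunit genes, and 0.208 over the 12061 tested genes with a GC value. The points are genes of the same 6 libraries and are not independent. Of the 39 genes above the median GC content of 50.4%, 21 rose and the median log2 fold change was 0.08. Of the 39 at or below it, 4 rose and 1 fell, with a median of 0.01. The trend with GC content also differed between libraries. It was taken as a smooth curve (lowess) through the genes' deviations from their mean log2 CPM over all samples. The curve's median over genes of at least 60% GC minus that over genes under 40% GC was -0.085, 0.025 and -0.087 in the controls. In 4HC it was 0.132, 0.049 and -0.029, and these ranges overlapped.

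When the trend with GC content was removed within each library, 24 ribosomal protein genes rose and 1 fell, against 19.3% and 19.5% of all genes in that fit, and rho over the 78 genes was 0.120. The fits had 19 risen genes in common. The call was lost by 6 genes, all above the median GC content and RPL13A, RPL18, RPL28, RPL35 and RPLP2 among them, and gained by 5, all at or below it and RPL23, RPL36A, RPL39 and RPS15A among them. The median was 0.061 for small and 0.024 for large subunit genes in this fit. RPS20, with 46.3% GC, then had the largest log2 fold change, 0.19, and RPS19, with 57.9% GC, had 0.14. The log2 fold changes of RPS9 and RPS2, with 59.5% and 59.2% GC, were 0.12 and 0.08 in this fit, and both were still called. Log2 fold changes had a rho of -0.2 with transcript length and 0.179 with control TPM over the 78 genes.

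Of the 49 genes with a run of at least 5 pyrimidines at a listed start, 20 rose and 0 fell, and their median log2 fold change was 0.06, beside the 32.1% of all 78 genes and 19.2% of all tested genes that rose. Of the 14 with a window but no such run (RPL4, RPL6, RPL7L1, RPL9, RPL10A, RPL15, RPL17, RPL27, RPL32, RPS4X, RPS15, RPS26, RPS28 and RPS29), RPS4X rose and RPL7L1 fell, with a median of 0.02. The difference between genes with and without the run was not tested. Other mRNAs known to carry a TOP motif did not share one direction. Of 20 such mRNAs outside the ribosome, EEF1D, EEF1G and TPT1 rose and EIF3E, EIF2S3, NPM1, NACA and HNRNPA1 fell, with a median of -0.00, where 19.2% of all tested genes rose and 17.1% fell. EEF1G, EIF3E and EIF2S3 lost the call when the trend with GC content was removed. EIF3L, not called before, was called higher in that fit (log2 fold change 0.06). NPM1, a nucleolar chaperone, went from 1608 ± 20.4 to 1395 ± 41.9 CPM (SD, n = 3).

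Among 8 regulators of these mRNAs, EIF4EBP2 and RPS6KB2 rose and LARP1, LARP4 and RPS6KB1 fell. Of all tested genes 19.2% rose and 17.1% fell. RPS6KB2, with 62.2% GC, lost the call when the trend with GC content was removed (log2 fold change 0.17 before and 0.09 after). RPTOR, another of the 8 and not called before, was called lower in that fit (log2 fold change -0.15). LARP1, which binds the TOP motif, had 300, 307 and 304 CPM in the controls and 270, 261 and 259 in 4HC (log2 fold change -0.20, SE 0.0333). Of 11 chaperones and assembly factors of ribosomal proteins, 7 fell (LTV1, GRWD1, BCCIP, RRS1, BRIX1, PDCD2 and PDCD2L) and 0 rose. Their median was -0.23, where 17.1% of all tested genes fell. BRIX1 lost the call when the trend with GC content was removed. ZNF277, another of the 11 and not called before, was called higher in that fit (log2 fold change 0.18). The difference from the ribosomal protein genes was not tested. LTV1, which escorts RPS3 and RPS20 on the young small subunit, had 69.6, 71.1 and 70.2 CPM in the controls and 57.5, 50.6 and 56.1 in 4HC. Without overlap it had a log2 fold change of -0.36 (SE 0.0494), while RPS3 and RPS20 rose. GRWD1, a chaperone of RPL3, fell by 19.4%, and RPL3 itself was not called (3799 ± 48.4 and 3941 ± 33.2 CPM).

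Of the ribosomal proteins with other symbols, FAU and RACK1 rose (log2 fold changes 0.15 and 0.08), where 19.2% of all tested genes rose. RACK1 lost the call when the trend with GC content was removed (0.05). FAU is made as a fusion with a ubiquitin-like protein. Of 5 tested paralogs outside the naming rule, RPS27L and RPL39L rose and RPL22L1 and RPL36AL fell, beside 19.2% and 17.1% of all tested genes. RPS27L had 323, 333 and 323 CPM in the controls and 357, 373 and 363 in 4HC (log2 fold change 0.16), beside 0.15 for RPS27. RPL22L1 had a log2 fold change of -0.23 (SE 0.0399), beside -0.02 for RPL22, which was not called.

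The 77 mitochondrial ribosomal protein genes, whose products build the separate ribosome inside mitochondria, gave 11 higher and 14 lower with a median of -0.04. Over all tested genes 19.2% were higher and 17.1% lower. Large and small mitochondrial subunits had 8 and 3 higher and 9 and 5 lower. Their largest changes were in MRPL49 (log2 fold change 0.65), MRPL39 (0.34) and MRPL27 (0.29). On chromosome 11 the coordinates of MRPL49 begin at 65122183 and those of FAU run up to 65122188. The genes thus share only a few bases, where reads may belong to either. The difference from the cytosolic genes was not tested.

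At the level of single transcripts, 197 of the 231 transcripts of these genes were tested, 5 were higher and 0 lower, where 0.706% of all 42216 tested transcripts were higher and 0.587% lower. None of these calls held with a replicate block or when any 1 sample was left out, where 0 transcripts of these genes were called. The 5 belong to RPLP0, RPL10 (2 transcripts), RPS19 and RPS9. The main RPL10 transcript, with 84.0% of the gene's counts, went from 14848 ± 42.6 to 16703 ± 411 counts (SD, n = 3), and a second one with 12.9% went from 2278 ± 62.5 to 2606 ± 22.9. The shares of both changed by less than the spread between samples. The main RPS19 transcript went from 11972 ± 162 to 13883 ± 255 counts, and that of RPLP0 from 39133 ± 703 to 43168 ± 528. In simulated data only 3.12% of transcripts with a log2 fold change of 0.5 were called. Those were drawn from all tested transcripts, rare ones included, so the rate is not that of the abundant transcripts here. A transcript of these genes that was not called is not thereby shown to be unchanged.

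RPS24, whose transcripts differ at the end of the reading frame, divided its reads between a pair of main isoforms. The first had 71.1% to 73.0% of the gene's counts in the controls and 70.0% to 70.8% in 4HC, and the second had 26.7% to 28.4% and 28.9% to 29.7%. The ranges did not overlap, but neither transcript was called (log2 fold changes -0.02 and 0.10, adjusted p = 0.921 and 0.444 in edgeR's quasi-likelihood test). RPS24 as a gene had 743 ± 17.1 and 751 ± 4.66 CPM (SD, n = 3).

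The authors' reference held copies of RPS9, RPS18, RPS25 and RPL7A on alternate loci. Reads were divided between identical transcripts there: the 5 of RPS18 had equal counts, and 9 copies of the main RPS9 transcript held 8.33% to 10.4% of the gene's counts each. The call for 1 copy of RPS9 therefore says nothing about an isoform. RPL17, RPL36A and RPS10 also overlap read-through genes, which held 520, 115 and 97 counts on average beside 17087, 4756 and 17308 for the genes themselves. Ribosomal protein genes have many processed pseudogenes, and how reads were divided among such near copies is not given in the sources used here.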

How the data were processed

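Total RNA of 3 control and 3 4HC samples was sequenced on an MGI platform after TRIzol extraction. Reads were cleaned by the authors with SOAPnuke and passed to the Dr. Tom system, and the submitters' processing notes name HISAT2, Bowtie2, RSEM 1.3.1, DESeq2 1.4.5 and GRCh38.p13 without their roles. For each gene and transcript the authors deposited expected counts, of which 85.5% were whole numbers over all genes (82.9% over the ribosomal protein genes). They also deposited TPM and FPKM values, which scale the counts by length and library. Deposited columns of the authors' own comparison (log2 fold changes, p-values and q-values) and a second gene table of 27 columns with the same values were not used.

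Groups came from the sample titles. Rounded expected counts entered edgeR 4.0.16 under R 4.3.3 (TMM normalization, filterByExpr, quasi-likelihood test, condition as the only term), with Benjamini-Hochberg adjustment over all genes tested and a threshold of 0.05. CPM are TMM-scaled, and standard errors were taken as the log2 fold change divided by the square root of F. The common biological coefficient of variation was 0.0277. In simulated counts of the 12368 genes the test called 52.2% of genes changed by 0.2, 90.7% by 0.5 and 100% by 1.5 (log2). Alternatives were DESeq2 1.42.0, limma 3.58.1 on log2 values of TPM (pseudocounts of 1 and 0.1) and FPKM (pseudocount of 1), other scalings and filters, a replicate block and leaving out each sample. A GC offset (lowess, span 0.3, GENCODE release 29 transcripts, 97.5% of genes with a value) and leaving out RPL7L1 were added after the data were seen. Python 3.11.15 with pandas 2.3.3, numpy 2.4.6, scipy 1.17.1 and matplotlib 3.10.9 was used for summaries and figures.

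A few genes are not reported here by name or in the plots by gene, but are part of every count. The members and all gene lists (role lists, other symbols, paralogs, other TOP mRNAs, their regulators, chaperones, CDKN1A and MDM2, granulosa markers, the line's SMARCA4 and SMARCA2, mitochondrial genes) were chosen with earlier results of these data known, and no list was tested. Named with full values were the 5 members with the largest rise and fall among those called, the 5 highest and lowest by control TPM, the role lists and up to 3 genes of largest change in each other list. RPS6, RPS16, RPSA, RPS27, RPS20, RPL37A, RPL28, RPL41, RPL7, RPL3, RPL35A and RPS24 were also described after their values were seen. SMARCA4 had 25.2 ± 2.8 CPM in control and 22.4 ± 1.15 in 4HC (SD, n = 3) and was not called (log2 fold change -0.17). When the trend with GC content was removed, SMARCA4 was called lower (-0.24). SMARCA2 did not exceed 0.246 CPM.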

Additional observations from a re-analysis of the deposited data

How the results depend on the processing

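No called change of the 78 ribosomal protein genes turned its direction under the alternatives run. The count of genes called higher, 25, was 39 when libraries were scaled by their totals only, 13 with limma on log2(TPM + 1) or log2(TPM + 0.1), which is 16.7% of the genes beside 15.5% of all tested genes, and 12 to 29 when 1 sample was left out. The count called lower, 1, was 2 with DESeq2, 1 to 2 when 1 sample was left out and 0 without RPL7L1. The second gene was RPL35A, with DESeq2 and without 4HC replicate 2. Scaling by totals moved the median of all tested genes from 0.0047 to 0.0255 (log2), and the medians of all, large and small subunit genes to 0.074, 0.040 and 0.088. With it 22.0% of all genes were higher and 14% lower. The difference between the medians of large and small subunit genes, -0.048, was -0.036 without RPL7L1. The log2 ratio of the share of counts between 4HC and control, 0.076, was 0.041 for summed TPM. Of the transcripts, 5 were called in the test as reported, 10 with a minimum of 10 counts in every sample and 24 with DESeq2. With a replicate block 0 were called, and 0 whichever sample was left out. No share of all transcripts is given for these other fits, so their counts cannot be read against one. At an unadjusted p under 0.05, edgeR called 50, and no share of all transcripts is given for this threshold.

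Over all genes the correlations of same-numbered samples were near 0 (0.009, 0.069 and 0.03). They were the highest for control replicates 2 and 3, while control replicate 1 correlated best with 4HC replicate 3 (0.045). The labels name no pairs, and the numbers were not taken as pairs. Over the 78 genes alone the same-numbered samples correlated at 0.134, 0.389 and 0.552, each the highest value for its control replicate. A replicate block gave 26 genes higher and 1 lower (33.3% and 1.28%), against 18.3% and 15.8% of all tested genes. Over all alternatives and members, 1194 single-gene results stayed on the same side of the threshold, 93 lost the call and 39 gained it. In the simulated data, drawn from all tested transcripts, 8.14% of transcripts changed by 1.5 (log2) were called by edgeR.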
